A study of Mus musculus with 11 samples.

Results

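The Notch receptors Notch1, Notch2 and Notch3, their ligands Jag1, Jag2 and Dll1, and the target genes Hes1, Hes5, Hey1 and Hey2 were followed through otospheres (OS), cochlear sensory epithelium (CSE) and embryonic stem cells (ESCs, labelled ES) of the mouse. These 10 genes were found on the arrays by the RefSeq accession of each probe, and they were 10 of 20284 genes with a named probe. They had 12 probes in all, 2 each for Notch1 and Notch2 and 1 for each of the others, and all 12 passed the filter on dim probes. Where a gene had 2 probes, the brighter was taken as its main value. In GRCm38.p6 the target genes lie at chr16:30065357-30067796 (Hes1), chr4:154960626-154962372 (Hes5), chr3:8663359-8667038 (Hey1) and chr10:30832359-30842783 (Hey2), and the ligand genes at chr2:137081451-137116520 (Jag1), chr12:112907803-112929812 (Jag2) and chr17:15367354-15376932 (Dll1).

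Otospheres are floating spheres grown from dissociated cochlear cells. The CSE was dissected from ICR mice on postnatal day 1, with 10 mice and 20 cochleae pooled per preparation, and the spiral ligament and stria vascularis had been removed. Otospheres were grown from such epithelium and used after passage 1, in medium with N2, B27, heparan sulfate, bFGF at 10 ng/ml and IGF1 at 50 ng/ml. The ESCs were 2 lines at passage 13, G4-2 (ES1) and D3 (ES2), kept without feeder cells in serum with LIF at 1000 U/ml, so that the ESC group has 1 array per line. The labels name no allele, transgene or other agent for any group. The CSE is a whole tissue of several cell types, and otospheres came from all of it rather than from a sorted cell. By the paper, the larger hollow spheres were strained out before RNA isolation, which left mostly solid otospheres.

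There were 11 single-colour arrays, 6 of OS, 3 of CSE and 2 of ES, on 2 slides. OS1 and OS2 differed by less than the noise between spots of the same probe (ratio of the SDs 0.819), as did OS4 and OS5 (0.353), while the other pairs within a group had ratios of at least 1.32. Each of these pairs was counted as 1 sample, written OS1-2 and OS4-5, which left 4 OS, 3 CSE and 2 ES samples. The median signal intensity of a spot ranged from 68 to 116 per array against a background of 32 to 38. Nothing in the labels says which samples of a group came from separate cultures, so p-values measure the spread between these samples, which may be partly technical. As a check of the labels, 5 of 6 ESC markers were lower in OS and in CSE than in ES. The other, Nanog, had a main probe signal of 9.82 in OS, 10.03 in CSE and 8.38 in ES, and passed neither test. The paper places Nanog among genes upregulated only in ESCs, and its immunostaining found no NANOG protein in otospheres. This main probe does not show that pattern. It was taken only as the brightest, and values of any other Nanog probe are not given here. Of 14 supporting cell markers, 10 were higher in OS than in ES and 13 in CSE. All values are log2 of the normalized signal. A gene is written as higher or lower in a group when its adjusted p in a limma model of the 3 groups, over all kept probes, was under 0.05.

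Notch receptors sit in the membrane and are bound by ligands of the Jagged and Delta families on a neighbouring cell. Binding allows proteases to release the inner part of the receptor, which joins the DNA-binding protein Rbpj in the nucleus and raises transcription of Hes and Hey genes, whose products are repressors. In the cochlea the pathway is known first for setting out the sensory region, with Jag1 as ligand, and later for lateral inhibition, by which cells that become hair cells keep their neighbours as supporting cells, with Dll1 and Jag2 as ligands and Hes5 as a target.

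Rbpj binds DNA at a short core sequence, and matches to it in the promoters of the 10 genes are shown first as a description of sequence, since binding was not measured. RefSeq promoters (GRCm38.p6) were used for 8 of the 10 genes, not Hes1 and Hey1, with 2 starts for Dll1, and the 250 bases before each start were searched for TGGGAA and its reverse complement TTCCCA. Of 32851 promoters of that length, 21.6% held a match on either strand. Of the 8 genes, 2 held one, Hes5 and Hey2. Hes5 had 2 matches, starting 226 and 82 bases before the start, on opposite strands. Hey2 had 1, starting 207 bases before. The Hes5 start used in the promoter table lies inside the annotated span of the gene. The windows around the Hes5 matches, of 30 bases each, and the whole Hey2 stretch read as follows, with the matches in capitals.

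Hes5, chr4:154960685-154960714, + strand: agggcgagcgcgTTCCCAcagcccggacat

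Hes5, chr4:154960829-154960858, + strand: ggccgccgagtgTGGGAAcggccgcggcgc

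Hey2, chr10:30842784-30843033, - strand: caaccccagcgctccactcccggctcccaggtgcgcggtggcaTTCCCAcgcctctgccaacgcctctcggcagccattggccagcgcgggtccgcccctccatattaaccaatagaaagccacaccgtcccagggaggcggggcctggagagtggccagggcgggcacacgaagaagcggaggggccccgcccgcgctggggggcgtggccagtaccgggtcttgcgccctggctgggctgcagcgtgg

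The Jag1 stretch, from the ligand gene with the largest difference between OS and CSE, is given for comparison and has no match, which says only that these letters are not in this window.

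Jag1, chr2:137116521-137116770, - strand: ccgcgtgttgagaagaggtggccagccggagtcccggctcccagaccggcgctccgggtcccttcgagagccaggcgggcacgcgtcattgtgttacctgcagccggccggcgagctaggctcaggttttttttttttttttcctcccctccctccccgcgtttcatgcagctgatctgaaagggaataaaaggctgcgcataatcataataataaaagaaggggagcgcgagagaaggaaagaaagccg

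The first question was how the pathway differed between otospheres and the epithelium they were grown from. Of the 10 genes, 5 were lower in OS than in CSE, namely Jag1, Jag2, Hes5, Hey1 and Hey2, and 0 were higher. Over the 18565 genes tested by their main probe, 10.3% were lower in OS and 7.17% were higher. The 3 receptors, Dll1 and Hes1 did not pass the test. The median difference of the 10 genes, OS minus CSE, was -1.49 on the log2 scale, and that of all genes was -0.01. In a bulk sample, fewer cells of a type and less RNA per cell cannot be told apart, and this holds for each difference given here.

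**Figure D1:**
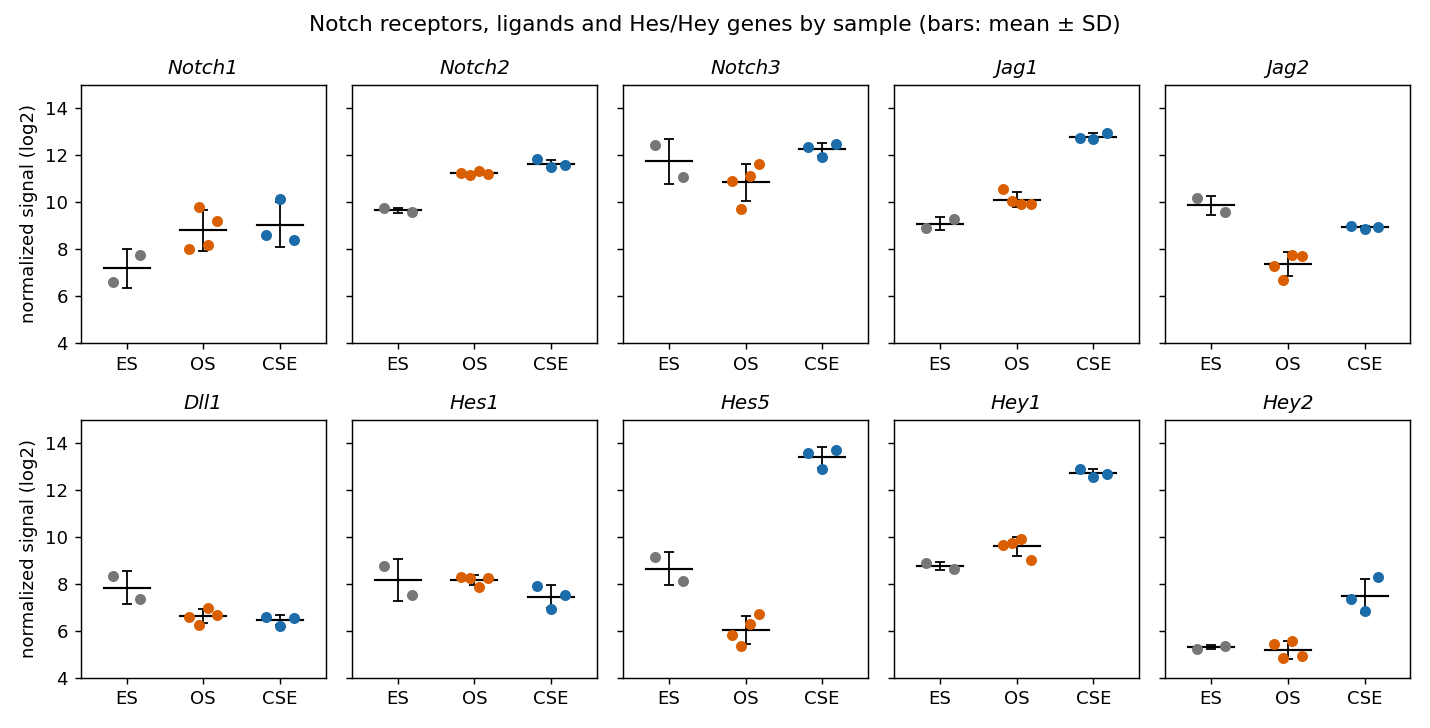
Normalized signal (log2, y axis) of the 10 genes by main probe in 2 ES, 4 OS and 3 CSE samples. Points are samples, and lines and bars are the mean ± SD. Hes5, Hey1 and Jag1 lie well apart in CSE and OS, while the samples of Hes1 and Notch1 overlap.

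Among the targets, Hes5, a basic helix-loop-helix repressor known from supporting cells, differed most. Its signal was 5.81, 5.34, 6.27 and 6.70 in OS1-2, OS3, OS4-5 and OS6. In CSE1, CSE2 and CSE3 it was 13.59, 12.89 and 13.72. The lowest CSE sample therefore lay above the highest OS sample by more than the range of either group. Hes5 was 165-fold lower in OS than in CSE (95% interval 91.2- to 300-fold, log2 difference -7.37, SE 0.38, adjusted p 2.37e-05 by limma). On slide 1 alone the log2 difference was -7.67 and on slide 2 it was -7.23. The Hes5 probe was well above background on 5 of the 6 OS arrays, the exception being OS3, so the OS level was close to background and the size of the difference moved with the processing, from -6.74 with an offset of 50 to -8.10 with 75th percentile scaling.

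Hey1 encodes a repressor related to the Hes proteins. Its signal was 9.66, 9.76, 9.93 and 9.03 in the OS samples, in the same order as above, and 12.91, 12.54 and 12.70 in the CSE samples. The groups did not overlap, and the probe was well above background on all 6 OS arrays. Hey1 was 8.70-fold lower in OS than in CSE (log2 difference -3.12, SE 0.23, adjusted p 1.25e-04 by limma), with log2 differences of -3.02 on slide 1 and -3.22 on slide 2.

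Hey2, its close relative, was dim throughout. The signal was 5.42, 4.82, 5.56 and 4.92 in OS and 7.35, 6.83 and 8.29 in CSE. The groups did not overlap, although the CSE samples were widely spread. The log2 difference was -2.31 (SE 0.34, adjusted p 0.00304 by limma). The probe was well above background on 3 of the 6 OS arrays, so no fold is given, and the log2 difference ranged from -1.61 with an offset of 50 to -4.42 with 75th percentile scaling. Within slide 1 the difference was -1.97 and within slide 2 it was -3.05.

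Hes1, a target that is widely expressed in progenitor cells, did not follow the other 3. Its signal was 8.29, 8.24, 7.87 and 8.26 in OS and 7.90, 6.93 and 7.54 in CSE. The groups overlapped, since OS4-5 lay just below CSE1. The log2 difference was 0.71 (95% interval -0.04 to 1.46, adjusted p 0.255 by limma), which was not past the threshold.

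Of the ligands, Jag1, the ligand of the early sensory region, had signals of 10.56, 10.05, 9.92 and 9.92 in OS. In CSE they were 12.75, 12.68 and 12.96. The samples of each group were close together and the groups were far apart. Jag1 was 6.43-fold lower in OS (log2 difference -2.69, SE 0.21, adjusted p 1.49e-04 by limma), with differences of -2.41 on slide 1 and -3.04 on slide 2.

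Jag2, a ligand made by hair cells, had signals of 7.28, 6.67, 7.75 and 7.72 in OS and 9.0, 8.84 and 8.93 in CSE. The CSE samples agreed closely and all lay above the OS samples. The log2 difference was -1.57 (SE 0.28, adjusted p 0.00785 by limma), a 2.96-fold lower signal in OS. It was -1.95 within slide 1 and -1.19 within slide 2.

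Dll1, the Delta-type ligand of early hair cells, was measured by a probe spotted 10 times per array. Its signal was 6.59, 6.24, 6.99 and 6.69 in OS and 6.60, 6.22 and 6.55 in CSE. The ranges overlapped almost wholly. The log2 difference was 0.17 with a 95% interval of -0.45 to 0.78, so a difference of more than about 1.72-fold higher in OS lies outside the interval.

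None of the receptors passed the test between OS and CSE, and the probes of a receptor were not all alike. The main probe of Notch2 gave 11.25, 11.14, 11.32 and 11.20 in OS and 11.83, 11.48 and 11.57 in CSE. These groups did not overlap, yet the log2 difference of -0.40 (95% interval -0.73 to -0.06) had an adjusted p of 0.139 by limma. The dimmer Notch2 probe had the opposite sign, 0.19, and its groups overlapped.

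Notch3, a receptor best known from vessel walls, gave 10.89, 9.73, 11.13 and 11.61 in OS and 12.34, 11.94 and 12.49 in CSE. All CSE samples were above all OS samples, and OS3 was the lowest. The log2 difference was -1.42 (95% interval -2.47 to -0.36), with an adjusted p of 0.0954 by limma. With every array taken as a separate sample it was -1.36 with an adjusted p of 0.0350, past the threshold.

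For Notch1, the receptor of lateral inhibition, the brighter probe gave 8.01, 9.81, 8.16 and 9.19 in OS and 8.61, 10.14 and 8.37 in CSE. Both groups spread over more than their difference of -0.24 (95% interval -1.55 to 1.06). The dimmer probe gave 6.28, 5.89, 6.28 and 6.02 in OS and 6.93, 6.45 and 6.69 in CSE. There the groups did not overlap and the difference was -0.57, with an adjusted p of 0.0801 by limma. The Notch1 probes thus ordered the samples differently, with OS3 the highest OS sample by the first and the lowest by the second.

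**Figure D2:**
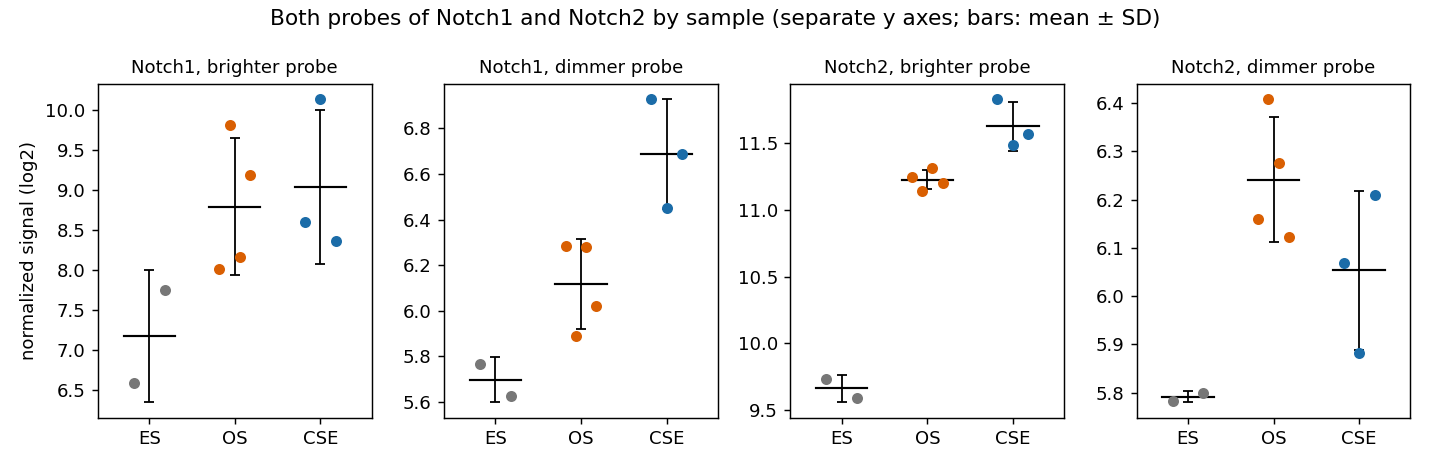
Normalized signal (log2, y axes differ between panels) of both probes of Notch1 and Notch2 in the 2 ES, 4 OS and 3 CSE samples, with mean ± SD. For Notch1 the brighter probe spreads within OS from 8.01 to 9.81 and the dimmer probe from 5.89 to 6.28, and for Notch2 the OS mean lies below the CSE mean by the brighter probe and above it by the dimmer.

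Markers of several cell types differed between OS and CSE alongside these genes. Of 14 supporting cell markers, 9 were lower in OS and 0 were higher. Their mean level, each gene centred on its mean over the 9 samples, was -0.13 to 0.70 in OS and 2.17 to 2.31 in CSE, and the log2 of their summed signal was 16.06 to 16.87 in OS and 17.84 to 18.13 in CSE. Of 15 hair cell markers, 7 were lower, with a mean level of -1.09 to 0.71 in OS and 1.19 to 1.47 in CSE and a summed signal of 11.61 to 13.47 and 14.61 to 14.74. Within OS, the hair cell level was -0.60 in OS1-2 and -1.09 in OS3 on slide 1, and 0.31 in OS4-5 and 0.71 in OS6 on slide 2.

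Hey1, Hey2, Jag1 and Notch3 are also known from blood vessels. Of 10 endothelial markers, 7 were lower in OS, with a mean level of -1.46 to -0.63 in OS and 1.09 to 1.79 in CSE and a log2 summed signal of 13.27 to 13.76 and 14.71 to 14.94. Tie1, Erg and Esam were not well above background on any OS array. Pecam1, Cdh5, Kdr and Egfl7 were well above it on all 6, and Tek, Emcn and Cldn5 on 5. Pecam1, Kdr and Emcn did not differ past the threshold between OS and CSE. Neuronal markers were lower in 7 of 8 cases, with a log2 summed signal of 12.09 to 13.43 in OS and 14.73 to 15.70 in CSE. In ES1 and ES2 this sum was 14.02 and 14.18, and the endothelial sum was 14.31 and 14.20, all above the OS samples. Neither list is thus particular to its cell type on these arrays. Of the neuronal markers, Elavl3 was the one not well above background on any OS array. Prox1 of the supporting cell list and Cdh23 of the hair cell list were likewise not well above background in OS. Of the remaining lists, 4 of 5 erythroid, 1 of 8 mesenchymal, 2 of 6 Schwann cell and 1 of 5 macrophage markers were lower in OS, and 1 Schwann cell marker was higher. The part of these cell types in the differences of the Notch genes was not tested.

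**Figure D3:**
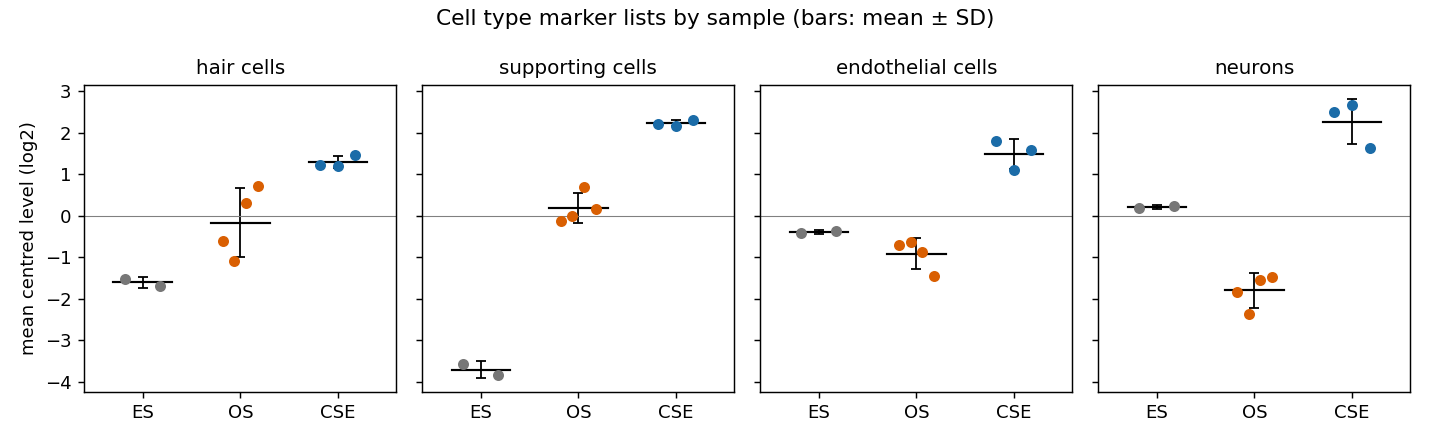
Mean level (log2, each gene centred on its mean over 9 samples, y axis) of the marker lists of hair cells, supporting cells, endothelial cells and neurons by sample, with mean ± SD. All 4 lists lie lower in the OS than in the CSE samples.

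The next question was how otospheres compared with ESCs. Of the 10 genes, 3 were higher in OS (Notch2, Jag1 and Hey1) and 3 were lower (Jag2, Dll1 and Hes5), against 18.4% of all genes higher and 20.4% lower. The median of the 10 differences was -0.05, beside -0.01 over all genes. The ESC group holds 2 arrays of different lines, and it also serves as the control of the CSE comparison that follows. ES1 lay on slide 1 and ES2 on slide 2, so line and slide cannot be told apart in within-slide differences from ES.

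Notch2 had the most even levels. It was 9.74 in ES1 and 9.59 in ES2, below all OS samples. It was 2.96-fold higher in OS (log2 difference 1.56, SE 0.17, adjusted p 2.08e-04 by limma), with 1.46 on slide 1 and 1.67 on slide 2. The dimmer Notch2 probe gave 0.45 with an adjusted p of 0.0838, so only the brighter probe passed.

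Jag1 was 8.88 in ES1 and 9.30 in ES2 and 2.03-fold higher in OS (log2 difference 1.02, SE 0.24, adjusted p 0.0109 by limma). The within-slide differences were 1.43 and 0.62. Without ES1 the difference was 0.81 with an adjusted p of 0.0851, so the call rested on that array, and the adjusted p was 0.0581 with scaling to the 75th percentile and 0.0731 with median centring. Hey1 was 8.89 and 8.64 in the ES samples and 0.83 higher in OS on the log2 scale (SE 0.26, adjusted p 0.0440 by limma). This lay just past the threshold, and it was no longer past it without any one of ES1, ES2, OS1-2, OS3, OS4-5 or any CSE sample, with differences of 0.70 to 0.95. The call was also lost with an offset of 0 (adjusted p 0.0606 by limma), 75th percentile scaling (0.0957), median centring (0.157) and the deposited table (0.0534).

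Of the lower genes, Jag2 was 10.16 in ES1 and 9.59 in ES2 and 5.75-fold lower in OS (log2 difference -2.52, SE 0.32, adjusted p 4.84e-04 by limma). It was lower by -3.19 on slide 1 and -1.85 on slide 2. Hes5 was 9.13 in ES1 and 8.14 in ES2, so that OS had the lowest Hes5 signal of the 3 groups. The log2 difference was -2.6 (SE 0.43, adjusted p 0.00197 by limma), or 6.07-fold lower in OS, with -3.56 on slide 1 and -1.65 on slide 2. Its size moved with the processing, from -2.10 with an offset of 50 to -3.49 with 75th percentile scaling. Dll1 was 8.34 in ES1 and 7.34 in ES2, and 2.32-fold lower in OS (log2 difference -1.21, SE 0.31, adjusted p 0.0170 by limma). Within slides the Dll1 difference was -1.93 and -0.50, and without ES1 it was -0.71 with an adjusted p of 0.141. With median centring it was -1.05 (adjusted p 0.0511). In the deposited log2 table the Dll1 difference was -0.13 (adjusted p 0.645), and there the values of this 10 times spotted probe were far below those in the scanner files.

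The other 4 genes did not pass. Hey2 was 5.24 and 5.36 in the ES samples, not well above background on either array, and no fold is given against OS. Hes1 was 8.78 in ES1 and 7.51 in ES2, a wider range than in OS, with a difference of 0.02 (95% interval -0.83 to 0.87). Notch3 was 12.43 and 11.06, and its difference from OS was -0.90 (95% interval -2.10 to 0.29). Notch1 was 6.59 and 7.76 by the brighter probe, below all OS samples, with a difference of 1.62 (95% interval 0.14 to 3.1) and an adjusted p of 0.102 by limma. It passed with median centring (1.62, adjusted p 0.0332) and by the mean over both probes (1.02, adjusted p 0.0301). By the dimmer probe it was 5.77 and 5.63 in the ES samples and 0.42 higher in OS, with an adjusted p of 0.165.

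The epithelium itself was compared with ESCs to place the OS levels. Of the 10 genes, 5 were higher in CSE (Notch2, Jag1, Hes5, Hey1 and Hey2) and 1, Dll1, was lower, against 20.9% of all genes higher and 20% lower. The median difference, CSE minus ES, was 1.91 for the 10 genes and -0.02 for all genes. The largest was Hes5, 27.2-fold higher in CSE (log2 difference 4.77, SE 0.45, adjusted p 1.11e-04 by limma), with 4.11 on slide 1 and 5.58 on slide 2. Hey1 was 15.4-fold higher (3.95, adjusted p 2.30e-05) and Jag1 13.1-fold higher (3.71, adjusted p 1.91e-05).

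Hey2 was higher in CSE by 2.19 on the log2 scale (adjusted p 0.00359 by limma). It was not well above background on either ES array, so the size is not resolved, and it ranged from 1.56 with an offset of 50 to 3.98 with 75th percentile scaling. Notch2 was 3.90-fold higher by its brighter probe (1.96, adjusted p 8.43e-05), while the dimmer probe gave 0.26 with an adjusted p of 0.332. Notch1 did not pass by its brighter probe (1.86, adjusted p 0.0750), but it did by the dimmer one (0.99, adjusted p 0.00752), by the mean over both (1.43, adjusted p 0.00795) and by the brighter one with median centring (1.77, adjusted p 0.0269). Dll1 was 2.6-fold lower in CSE (-1.38, adjusted p 0.0116), and this was -0.88 with an adjusted p of 0.0804 without ES1 and -0.13 with an adjusted p of 0.654 in the deposited table. Jag2 was lower in CSE by -0.96, with an adjusted p of 0.0630, although its groups did not overlap, and it passed with an offset of 50 (adjusted p 0.0411), with every array separate (0.0387) and without OS3 (0.0189).

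**Figure D4:**
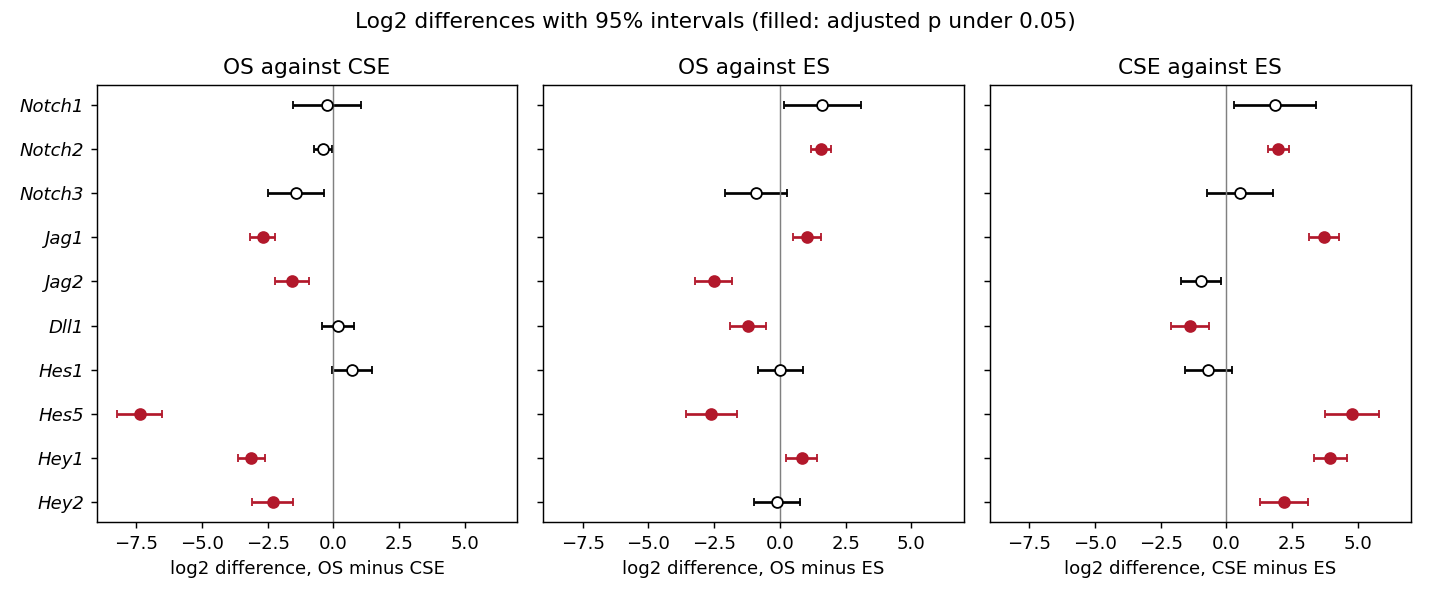
Log2 differences (x axis) of the 10 genes in the 3 comparisons, with 95% intervals from the limma model, and filled points where the adjusted p was under 0.05. The order of the groups differs by gene, and Hes5 has the largest differences in both comparisons with CSE, -7.37 against OS and 4.77 against ES.

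The order of the groups was not the same for all genes. For Hes5 it was CSE, ES, OS from high to low, and each neighbouring pair passed the test. For Jag1 and Hey1 it was CSE, OS, ES, with OS and ES neighbours whose call was lost under several alternatives, as given above. For Jag2 it was ES, CSE, OS, and ES and CSE did not differ past the threshold. For Notch2 it was CSE, OS, ES by the brighter probe, where CSE and OS did not differ past it, and OS, CSE, ES by the dimmer, where no pair did. For Dll1 the ES samples were highest and OS and CSE did not differ past it, and for Hey2 the CSE samples were highest and OS and ES did not.

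Over the 9 samples, the genes whose levels ran most like Hes5 were Frem2 (Pearson r 0.995), 1110032F04Rik (0.994) and Nrl (0.988). For Hey1 they were Zpld1 (0.996), Olfm3 (0.994) and Heyl (0.993), for Jag1 Cdh18 (0.991), Dkk2 (0.991) and Fabp7 (0.990), and for Jag2 Mreg (0.998), Sox2 (0.985) and Celsr3 (0.984). For Notch2 they were Dnal1 (0.999), Cyth1 (0.994) and Gjb2 (0.993), and for Hey2 they were Ffar4 (0.989), Cav3 (0.987) and Erg (0.985). Erg was well above background on 0 ES and 0 OS arrays, and Hey2 on 0 ES and 3 OS arrays, so values near background enter their r. For Notch3 the closest was Tbc1d9 (0.969), for Notch1 Gab3 (0.993), for Dll1 Pctp (0.990) and for Hes1 Pgpep1 (0.943). Among the 10 genes themselves, Jag1 and Hey1 were most alike (r 0.977), and Notch1 and Dll1 ran most apart (-0.88). Hes1 had -0.625 with Jag1, -0.593 with Hey1, -0.572 with Hey2 and -0.547 with Hes5, but 0.508 with Dll1. These values describe 9 samples in 3 groups that share their arrays.

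The other genes of the pathway were taken as lists by role, with 42 of 45 listed genes measured. Between OS and CSE, 11 of the 42 were lower in OS and 0 were higher, with a median difference of -0.33, beside 10.3% of all genes lower and 7.17% higher. None of the 8 measured proteases, which process the receptor, passed the test by its main probe, while the other probe of Aph1b was higher in OS (1.51, adjusted p 0.0341) and its main probe gave -0.49. With other scalings the number of the 42 past the threshold fell to 5, both by the 75th percentile of each array and by its median, and it was 7 without CSE1 and 5 without CSE3.

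Heyl, another Hey gene, was among them. Its signal was 6.81, 6.37, 6.28 and 5.56 in OS and 10.15, 9.59 and 10.22 in CSE. It was 13.3-fold lower in OS (log2 difference -3.73, adjusted p 1.86e-04 by limma), beside the log2 differences of Hey1 and Hey2. Of the Fringe enzymes, which add sugars to Notch and change its choice of ligand, Mfng was lower in OS by -3.55 and Lfng by -2.58, and Rfng by -0.87 (adjusted p 0.0139, 0.00154 and 0.0201 by limma). Mfng was widely spread in OS, at 6.99, 6.0, 8.81 and 9.30, and without CSE1 or CSE3 its adjusted p was 0.0535 and 0.0604.

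Dtx1, a regulator that is itself a known Notch target, was 7.72-fold lower in OS (log2 difference -2.95, adjusted p 0.00239 by limma), with signals of 7.20, 8.20, 6.70 and 6.22 against 10.00, 9.85 and 10.24. Dner, a non-canonical ligand, was lower by -2.70 (adjusted p 0.0220). Rbpj, the nuclear partner of Notch, was lower by -1.21 by its brighter probe (adjusted p 0.00452), but by 0.32 higher by its other probe (adjusted p 0.579), so the probes do not give 1 direction. The brighter probe was not past the threshold with scaling to the 75th percentile (adjusted p 0.0580) or median centring (0.181). Hes6, which acts against Hes1, was lower by -1.15 (adjusted p 0.00210), though not with these scalings (0.0815 and 0.191). Dll3, a ligand known to act within its own cell, was lower by -0.92 (adjusted p 0.0259) and by its other probe by -2.95 (adjusted p 5.26e-04), and the former was lost without OS1-2, OS3, CSE1 or CSE3 and with median centring (adjusted p 0.0505 to 0.103). Nrarp, a target that feeds back on the pathway, had a difference of -0.75 with an adjusted p of 0.309, Notch4 -1.12 with an adjusted p of 0.374, and Dll4, the ligand of vessels, -0.71 with an adjusted p of 0.131.

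Between OS and ES, 12 of the 42 were higher in OS and 8 were lower, beside 18.4% and 20.4% of all genes. The 8 measured proteases were all higher, led by Adam10, which cuts the receptor after ligand binding (14.7-fold, log2 difference 3.88, adjusted p 4.14e-05 by limma), and Aph1b, a subunit of gamma-secretase (12.9-fold, 3.69, adjusted p 3.10e-05). The other probe of Aph1b gave 2.74 (adjusted p 0.00142 by limma). Adam10 had signals of 13.33, 13.17, 13.91 and 13.61 in OS and 9.13 and 10.12 in ES. Maml3, a coactivator of the nuclear complex, was 8.28-fold higher by its main probe (3.05), and its other probes gave 1.26 and 0.81. The lower genes included Dtx1 (18.7-fold), Dlk1 (13.2-fold), Mfng (9.73-fold), Dll3 (6.15-fold) and Rbpj (3.0-fold), the last by both probes, while Mfng was no longer past the threshold without ES1 (adjusted p 0.0979). By main probe the log2 differences of Dlk1, Dll3 and Mfng were -3.72, -2.62 and -3.28. Their other probes gave -2.66, -4.63 and -2.67, so direction was shared but size was not. Hes3 also passed, but it was well above background on 0 of the OS and 1 of the ES arrays, and no fold is given.

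**Figure D5:**
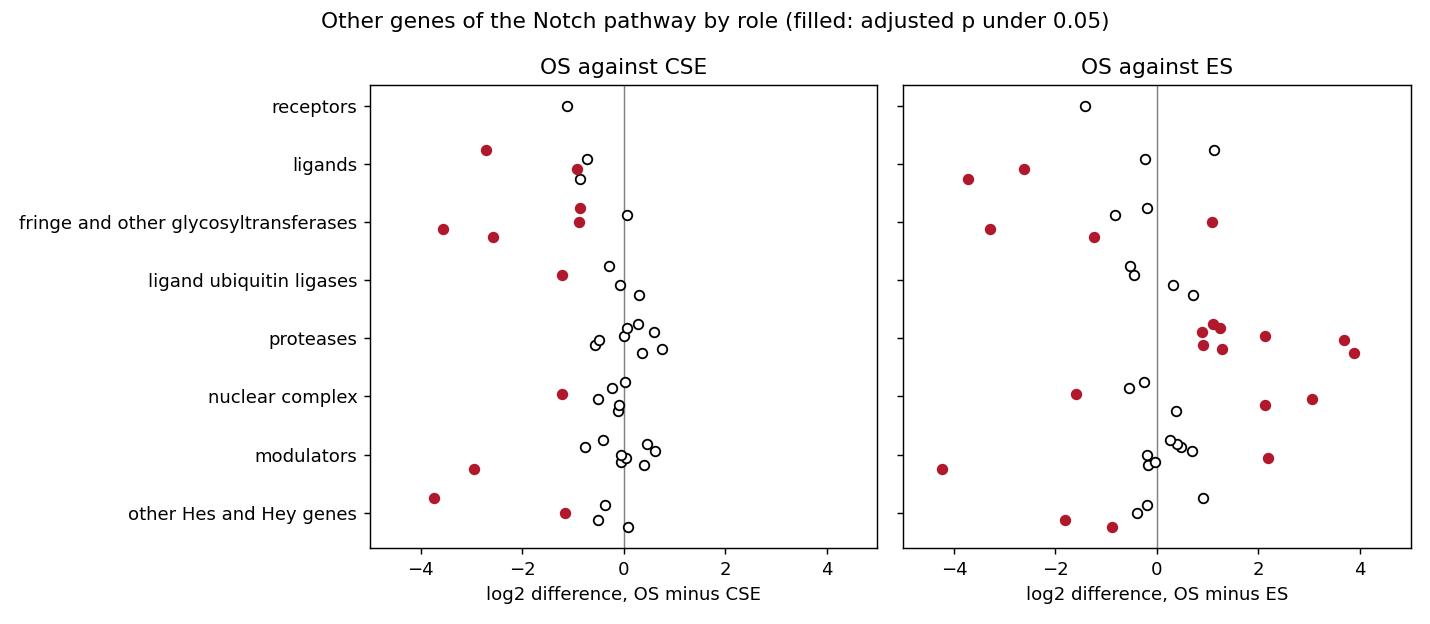
Log2 differences (x axis) of the main probes of 42 other pathway genes, grouped by role (y axis), between OS and CSE and between OS and ES. Filled points had an adjusted p under 0.05. In the protease row 8 of 8 main probes are higher in OS than in ES and none passes the test between OS and CSE.

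Between CSE and ES, 13 of the 42 were higher in CSE and 3 were lower, beside 20.9% and 20% of all genes. Heyl (log2 difference 4.65), Aph1b (4.17) and Dner (3.83) had the 3 largest differences by main probe, with ranges over the alternatives of 3.81 to 6.11 for Heyl, 2.70 to 4.71 for Aph1b and 2.74 to 4.93 for Dner. The other probe of Aph1b gave 1.23 with an adjusted p of 0.0714. The lower genes were Dlk1 (-2.87), Dll3 (-1.70) and Hes2 (-0.98).

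The slides were compared within the otospheres, since OS4-6 lay on the other slide from OS1-3. None of the 10 genes passed the test between these sets (0 by limma with averaged samples and 0 with every array separate). With averaged samples 1 main probe, that of Jag2, had an unadjusted p of 0.0235 with a log2 difference of 0.76. Hes5 and Notch3 had larger differences of 0.91 and 1.06, with unadjusted p of 0.0551 and 0.0729 by limma. With so few samples per set, the lack of a call does not show that the sets were alike. Over all 47997 kept probes, 43 passed the test and 5373 had an unadjusted p under 0.05. With every array separate these numbers were 2644 and 8787, and 3 of the 10 main probes had an unadjusted p under 0.05. The difference between OS and CSE was not found to vary with the slide for any of the 10 genes, with 0 probes past the threshold in all and 2914 at an unadjusted p under 0.05. With every array separate, 18 probes passed, 0 of them main probes of the 10 genes. A slide that held 1 CSE or 1 ES array allows only large differences of this kind to be seen.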

How the data were processed

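Cy3-labelled RNA of 6 OS, 3 CSE and 2 ES arrays had been hybridized to single-colour SurePrint arrays with 62976 spots. The authors deposited scanner files with spot and background intensity from Feature Extraction 10.7.3.1, and a log2 table that they background-corrected, quantile-normalized with limma and filtered.

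Median intensities were corrected here with limma 3.58.1 in R 4.3.3 (normexp, offset 16), log2-transformed and brought to common quantiles across all 11 arrays. Control and outlier-flagged spots were dropped, and spots of a probe averaged. Probes were kept if their signal on 2 arrays exceeded the 95th percentile of 308 negative controls by 10%, which left 47997 of 55681. The methods ask for 3 arrays, while the ES group has 2. RefSeq accessions named 26762 probes. A limma model of the 3 groups was fitted with Benjamini-Hochberg adjustment. On simulated data for OS against CSE, 50 of 47958 probes were changed at each log2 size of 1, 2, 3 and 4. The model recovered 20%, 74%, 82% and 98% of these, with 7 false calls. In the real comparison 2321 probes were higher and 2973 lower, far more than were changed in the simulation, so these rates need not hold for it. The number of arrays limits the precision.

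Named genes were the 10 genes with all their probes and, of the pathway lists, those with the largest differences past the threshold and others set down by name. Further pathway genes and markers were named after their values were seen. The genes, lists and tests were chosen with earlier results of these data known. Alternatives were the offset, scaling, deposited table, filter, averaging of arrays, slide and replicate blocks, probe choice and leaving out each sample.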

Additional observations from a re-analysis of the deposited data

Results flagged for a closer look

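Hes1 in OS4-5 (7.87) lay apart from the other 3 otosphere samples (8.24 to 8.29). Its gap to the nearest sample was 0.883 of the range of the group, above Dixon's 95% critical value for 4 samples. The range was narrow, and chance alone sets about 1 group in 20 apart in this way. Of the 12 probes of the 10 genes, this was the only one.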

How the results depend on the processing

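The 17 differences of the 10 genes that passed the test gave 342 values under 22 alternatives, of which 320 kept direction and call, 22 were no longer past the threshold and 0 changed sign. The count between OS and CSE stayed at 5 or 6 throughout. Between OS and ES the number of genes past the threshold ranged from 3, without ES1, to 6 when single samples were left out. Of differences not past the threshold, Notch3 between CSE and ES changed sign with 75th percentile scaling (-0.15) and median centring (-0.11), and lay between -0.17 and 1.2 with samples left out. Hes1 between OS and ES changed sign with every array separate (-0.010) and lay between -0.61 and 0.65, and Notch1 between OS and CSE between -0.58 and 0.31. The dimmer Notch2 probe gave 0.19 between OS and CSE. Such differences also gained a call in 10 values, namely Jag2 between CSE and ES (3), Notch1 between OS and ES (2) and between CSE and ES (3), Notch3 between OS and CSE (1) and Hes1 between CSE and ES without ES2 (1, adjusted p 0.0351). The cause was not tested. Scaling to the 75th percentile set the median of all genes at -0.26 for OS minus ES and -0.26 for CSE minus ES, and median centring at 0.13 for OS minus CSE and -0.25 for CSE minus ES.

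OS, CSE and ES arrays share replicate numbers. The deviations of same-numbered arrays from their group means had correlations of -0.39 to 0.36. Deviations within a small group oppose one another, so these values cannot decide whether the numbers paired the arrays. With a replicate block and every array as a separate sample, 5 of the 10 genes passed between OS and CSE and 6 in each comparison with ES. OS4-6 share their numbers with no CSE or ES array.

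The 2 ES arrays, 1 per line, and signals near background for Hes5 in OS and Hey2 in OS and ES limit the precision.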
